A study of Homo sapiens with 11 samples.

Results

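Mitochondria import most of their proteins unfolded, fold them with their own chaperones and destroy the faulty ones with their own proteases. The 10 genes described here encode the core of that system: the chaperones HSPD1, HSPE1, HSPA9 and TRAP1, the soluble matrix proteases LONP1 and CLPP with its unfoldase CLPX, and the inner membrane proteases YME1L1, AFG3L2 and SPG7. They were taken by symbol from the expression table, where each had 1 row among 60656 rows, and all 10 were among the 15045 genes tested. Expression is given as TPM, a length-corrected share of a library's transcripts scaled to the same total in each library, which allows levels to be compared between genes.

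All 9 RNA libraries came from Z138, an established mantle cell lymphoma line, and from 1 clone of it, clone 7, transduced with Cas9-RFP and 2 guides against the DNA methyltransferase gene DNMT3A, both switched on by doxycycline. The groups were uninduced cells without the drug, cells given doxycycline at 2 ng/mL for 5 days, and cells given the same dose for 7 days, with 3 libraries each. Replicates 1, 2 and 3 were separately frozen vials induced on different days, with the RNA of 2 technical duplicates pooled. No library with doxycycline but without the guides was analysed here, so effects of the drug, of Cas9 and of the edit cannot be told apart.

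The protein products divide the work by place and step. HSPA9 (mortalin), the mitochondrial Hsp70, pulls proteins in through the inner membrane, and the HSPD1 barrel with its HSPE1 lid encloses and folds them; LONP1 and the CLPX-CLPP complex degrade damaged matrix proteins, and the AAA proteases do so in the membrane. Doxycycline can slow translation on mitochondrial ribosomes, which leaves complexes encoded partly by mitochondrial DNA short of subunits. In the worm C. elegans such an imbalance raises the matrix chaperones through the transcription factor ATFS-1, while in human cells a signal from OMA1 through DELE1 and EIF2AK1 to ATF4 is better established.

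HSPD1 and HSPE1 lie head to head and are transcribed away from each other from a shared interval of 104 bases. The interval is shown because both genes start at its ends; capitals mark its only E-box, CACGTG, a sequence bound by MYC with MAX and by USF proteins. It lies at chr2:197500275-197500378 on the plus strand of GRCh38.p14 in RefSeq, and HSPE1 is transcribed rightwards from its end.
HSPD1-HSPE1 interval: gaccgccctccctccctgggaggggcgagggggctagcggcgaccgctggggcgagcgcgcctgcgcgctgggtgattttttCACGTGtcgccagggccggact

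LONP1 has a pair of annotated starts, and the sequences around them are shown because this gene varied most clearly between replicate numbers. The 250 bases before the outer start, chr19:5720453-5720702 on the minus strand, hold the core of the site of the respiratory gene activator NRF1, GCGCATGC, 4 times when both strands are read and overlaps are counted. Capitals mark those matches, the first run holding an overlapping pair.
LONP1 outer start: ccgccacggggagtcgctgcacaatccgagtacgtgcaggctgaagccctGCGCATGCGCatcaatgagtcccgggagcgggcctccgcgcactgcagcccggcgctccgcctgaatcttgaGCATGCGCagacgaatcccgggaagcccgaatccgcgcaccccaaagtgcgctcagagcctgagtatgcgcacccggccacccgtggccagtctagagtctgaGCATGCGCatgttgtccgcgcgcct
The window of the inner start holds 2 E-boxes, given in capitals with their flanks on the minus strand at chr19:5720343-5720368 and chr19:5720180-5720205, between both starts.
LONP1 E-box 1: cacagccttcCACGTGaccggaaaag
LONP1 E-box 2: cgccgggcgtCACGTGcgtttcgcgg

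RefSeq promoter windows of 300 bases, 250 before and 50 after a start, were at hand for 8 of the 10 genes, CLPP and YME1L1 being the exceptions. The E-box was found in windows of HSPD1, HSPE1, HSPA9 and LONP1, the HSPD1 and HSPE1 windows sharing 204 bases and the same site. Of 35116 windows of this length, 7.26% held it. The shares given here are per window, while members are named by gene, and HSPD1, LONP1 and SPG7 each had a further window. The number of genes named is therefore not a like measure to these shares. The NRF1 core, in 3.05% of windows, was found in LONP1 alone among the 8 genes. A heat shock element, GAANNTTC, stood in the window of a second HSPD1 start and in 6.77% of all windows. A CCAAT box stood in the CLPX window and in 34.6% of all. The amino acid response element TGATGNAA, a form of the site bound by ATF4 with its partners, was in none of the members' windows and in 3.62% of all, and the ETS site CCGGAAGT was in none and in 4.14%. The windows of TRAP1, AFG3L2 and SPG7 held none of the 6 motifs. These are matches of letters on both strands, not sites shown to be bound.

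The chaperones were the most abundant of the 10 transcripts. In uninduced cells the mean was 772 ± 120 TPM for HSPD1 and 564 ± 153 for HSPE1 (SD, n = 3), with overlapping ranges. TRAP1 followed at 359 ± 23.1, then HSPA9 at 276 ± 35.4, LONP1 at 190.0 ± 50.4 and YME1L1 at 108 ± 3.64, with no overlap between neighbours. CLPP at 77.6 ± 14.4 and AFG3L2 at 75.3 ± 8.43 overlapped, and SPG7 at 48.2 ± 5.08 and CLPX at 26.6 ± 1.19 came last. CLPX lay at the 66.3 percentile of tested genes by mean TPM and HSPD1 at the 98.6. The same order of means was seen at day 7, and at day 5 AFG3L2 and CLPP changed places while their ranges still overlapped. HSPE1 and TRAP1 overlapped at day 5, and TRAP1 and HSPA9 at day 5 and day 7.

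Induction was compared with uninduced cells to ask whether doxycycline with Cas9 and the guides moved this system. No member passed the test in any day comparison. At day 5 against uninduced, 0 of 10 members had a limma adjusted p under 0.05, against 0.00665% of all tested genes (1 gene). At day 7 against uninduced it was 0 of 10 against 0% (0 genes), and at day 7 against day 5 it was 0 of 10 against 0.00665% (1 gene). No member had a limma unadjusted p under 0.05 either, beside 1.99%, 2.24% and 1.68% of all genes (300, 337 and 253 genes). With shares this low, 0 of 10 says nothing particular of the members. Groups without overlap were found for 0 of 10 members each time, against 5.56%, 6.13% and 4.31% of all genes. Few genes of any kind passed, so the intervals below, from the fit with group as its only term, are given beside each gene. That fit leaves the spread between replicate numbers in its error. The median SE over all genes was 0.198, and 0.144 with replicate number added as a term.

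**Figure D1:**
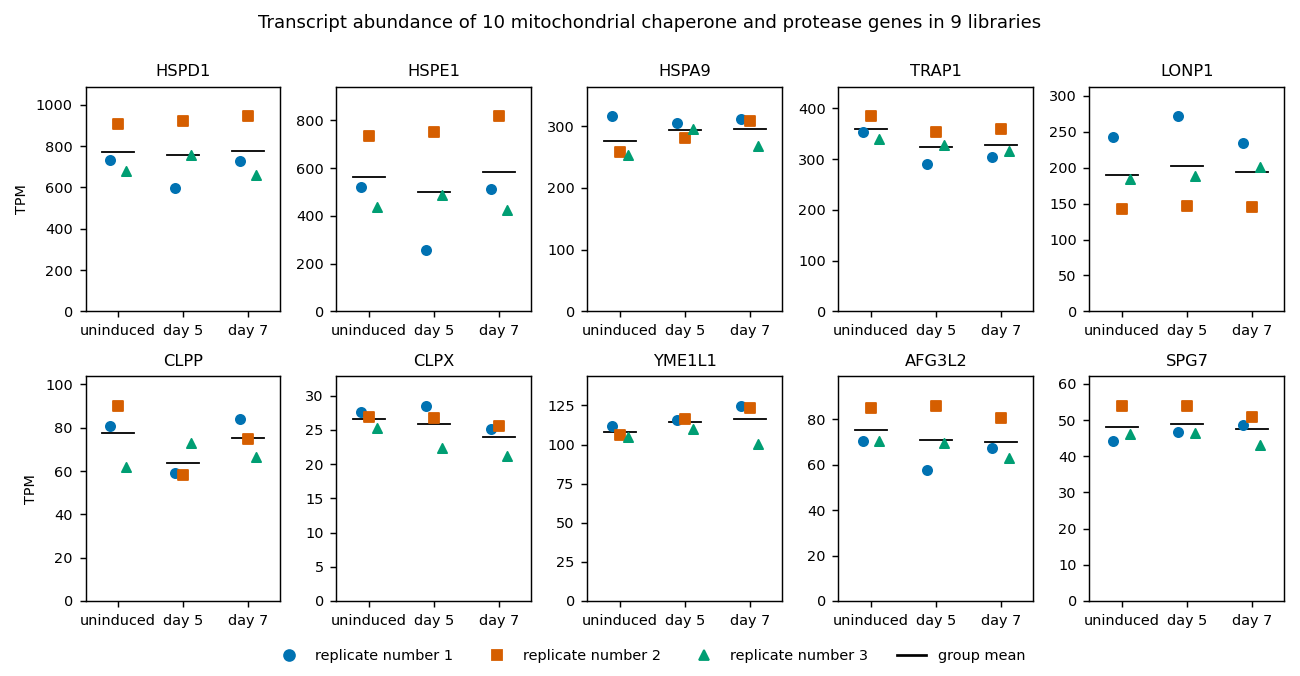
TPM (linear axes from 0) of each of the 10 genes in 9 libraries, by group on the horizontal axis, with colour and shape for replicate number and a bar for the group mean. The group means lie close together, while LONP1 is lowest and HSPD1 and HSPE1 highest in the 3 libraries numbered 2.

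HSPD1 (chr2:197486584-197500274), the Hsp60 subunit of the folding barrel, measured 730.4, 908 and 679 TPM without induction in replicates 1, 2 and 3, then 596, 924 and 755 after 5 days of doxycycline and 726, 945 and 661 after 7 days. Replicate 2 was highest in every group and the groups overlapped throughout. Relative to uninduced cells the log2 change was −0.039 (SE 0.19, 95% interval −0.47 to 0.40) at day 5 and 0.0037 (−0.43 to 0.44) at day 7, both with a limma adjusted p of 1.00.

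HSPE1 (chr2:197500379-197503449), the Hsp10 lid of that barrel, had 521, 734 and 437 TPM without the drug, 259, 751 and 486 on day 5 and 513, 818 and 425 on day 7, in replicate order. Day 5 replicate 1 was the lowest of the 9 libraries, and replicate 2 was highest in each group. The log2 fold change at day 5 was −0.27 (SE 0.38, −1.13 to 0.58) and turned to 0.13 without day 5 replicate 1. At day 7 it was 0.031 (−0.83 to 0.89). Those intervals are the widest of the 10 genes.

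The ratio of HSPD1 to HSPE1 TPM was 1.40, 1.24 and 1.55 in uninduced replicates 1 to 3, 2.30, 1.23 and 1.55 at day 5, and 1.42, 1.16 and 1.55 at day 7. It was lowest in the libraries numbered 2 and nearly constant in those numbered 3. Day 5 replicate 1 had the highest ratio. That library also had the highest DNMT3A level, 18.9 TPM, against 9.24 to 10.96 in the other 8. No ratio was tested.

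Both genes have many processed copies in the genome, so reads can be split between them and the copies, and their TPM are uncertain to that extent. The table listed 17 HSPD1 pseudogene rows, which together summed to 8.51% of HSPD1 and of which 5 had a mean of at least 1 TPM. For HSPE1, 27 other rows with its symbol as prefix summed to 7.21% of HSPE1. The largest were HSPD1P1, at 37.6, 49.8 and 38.4 TPM by mean of replicate numbers 1, 2 and 3, and HSPE1P2, at 16.3, 35.2 and 18.5. Both were highest in number 2, as were the genes they were copied from.

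HSPA9 (chr5:138553756-138575401), the Hsp70 of the import motor, measured 317, 258 and 253 TPM without induction in replicates 1, 2 and 3, then 305, 280.3 and 296 after 5 days of doxycycline and 312, 308 and 269 after 7 days. All libraries lay within a narrow band and the groups overlapped. Limma put the log2 fold change at 0.097 (SE 0.12, −0.16 to 0.36) at day 5 and 0.11 (−0.16 to 0.37) at day 7. Both stayed above 0 in every alternative run, but those runs reuse the same libraries.

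TRAP1 (chr16:3658037-3717524), the mitochondrial Hsp90, had 353, 385 and 339.7 TPM without the drug, 289.8, 353 and 327 on day 5 and 304, 359 and 317 on day 7, in replicate order. Each induced library was lower than the uninduced library of its number, but the groups overlapped. The fitted log2 difference was −0.15 (SE 0.11, −0.41 to 0.10, limma unadjusted p = 0.205) at day 5. At day 7 it was −0.14 (−0.39 to 0.12, limma unadjusted p = 0.254). Neither passed the test. Both were below 0 in every alternative run, but those runs reuse the same libraries.

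LONP1 (chr19:5691834-5720452), the Lon protease that degrades oxidised matrix proteins, measured 243, 142 and 185 TPM without induction in replicates 1, 2 and 3, then 272, 147 and 188 after 5 days of doxycycline and 235, 145 and 201 after 7 days. In each group replicate 1 was highest and replicate 2 lowest. Its log2 change from uninduced came to 0.078 (SE 0.27, −0.53 to 0.69) at day 5 and 0.032 (−0.58 to 0.64) at day 7. Its sign turned when day 5 replicate 1 (−0.16 at day 5) or uninduced replicate 2 (−0.16 at day 7) was left out.

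CLPP (chr19:6361531-6370242), the peptidase barrel of the matrix, had 80.8, 90.2 and 61.9 TPM without the drug, 59.2, 58.4 and 73.0 on day 5 and 84.0, 74.6 and 66.6 on day 7, in replicate order. Replicates 1 and 2 were lower at day 5 than uninduced and replicate 3 was higher, so the groups overlapped. The log2 fold change at day 5 was −0.28 (SE 0.16, −0.64 to 0.092; limma unadjusted p = 0.125), the smallest p of a member in any day comparison of the fit by group alone, and at day 7 it was −0.037 (−0.41 to 0.33).

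CLPX (chr15:65148219-65185342), the unfoldase that feeds CLPP, measured 27.7, 26.8 and 25.3 TPM without induction in replicates 1, 2 and 3, then 28.6, 26.8 and 22.3 after 5 days of doxycycline and 25.1, 25.5 and 21.2 after 7 days. Replicate 3 was lowest in each group. Relative to uninduced cells the log2 change was −0.043 (SE 0.13, −0.34 to 0.25) at day 5 and −0.15 (−0.44 to 0.14) at day 7. The ratio of CLPX to CLPP ran from 0.298 to 0.409 in uninduced libraries, from 0.306 to 0.483 at day 5 and from 0.299 to 0.342 at day 7, overlapping throughout.

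YME1L1 (chr10:27110111-27154384), whose catalytic site faces the intermembrane space, had 112, 106 and 105 TPM without the drug, 116, 116 and 110.1 on day 5 and 125, 123 and 100.1 on day 7, in replicate order. Day 7 replicates 1 and 2 were the highest libraries, and day 7 replicate 3 was the lowest of all. Limma put the log2 fold change at 0.083 (SE 0.11, −0.16 to 0.33) at day 5 and 0.10 (−0.15 to 0.35) at day 7.

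AFG3L2 (chr18:12328944-12377227), a subunit of the AAA protease that faces the matrix, measured 70.5, 85.0 and 70.4 TPM without induction in replicates 1, 2 and 3, then 57.6, 86.1 and 69.5 after 5 days of doxycycline and 67.3, 80.7 and 62.8 after 7 days. Replicate 2 was again highest in each group and day 5 replicate 1 the lowest library. The fitted log2 difference was −0.096 (SE 0.17, −0.47 to 0.28) at day 5, turning to 0.043 without day 5 replicate 1, and −0.10 (−0.47 to 0.27) at day 7.

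SPG7 (chr16:89508388-89557768), paraplegin, which joins AFG3L2 in mixed rings, had 44.3, 53.9 and 46.3 TPM without the drug, 46.7, 54.0 and 46.5 on day 5 and 48.5, 50.8 and 43.0 on day 7, in replicate order. Replicate 2 was highest in every group. Its log2 change from uninduced came to 0.026 (SE 0.12, −0.25 to 0.30) at day 5 and −0.020 (−0.30 to 0.26) at day 7. The ratio of AFG3L2 to SPG7 was 1.58 to 1.59 in the libraries numbered 2 and 1.23 to 1.59 in the other 6.

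**Figure D2:**
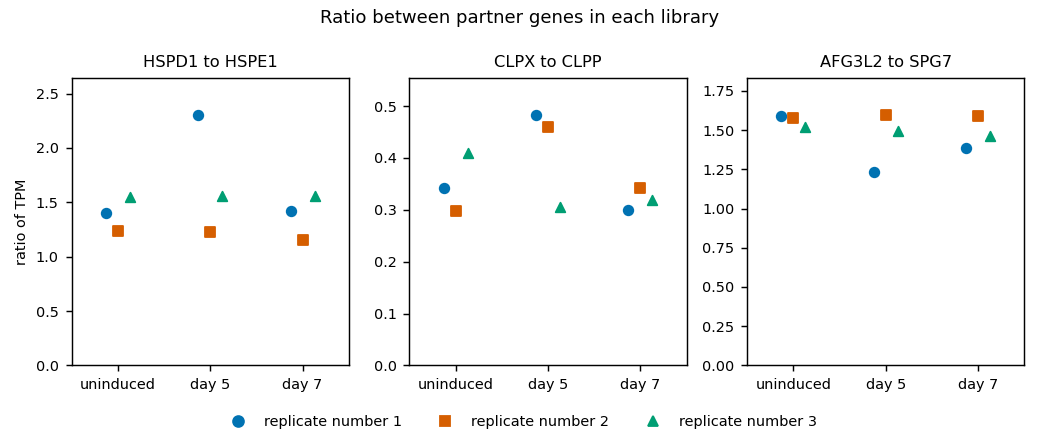
Ratio of TPM between partner genes in each of 9 libraries, by group on the horizontal axis, with colour and shape for replicate number. HSPD1 to HSPE1 is lowest in number 2 (1.16 to 1.24) and reaches 2.30 in day 5 replicate 1; CLPX to CLPP and AFG3L2 to SPG7 overlap between groups.

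**Figure D3:**
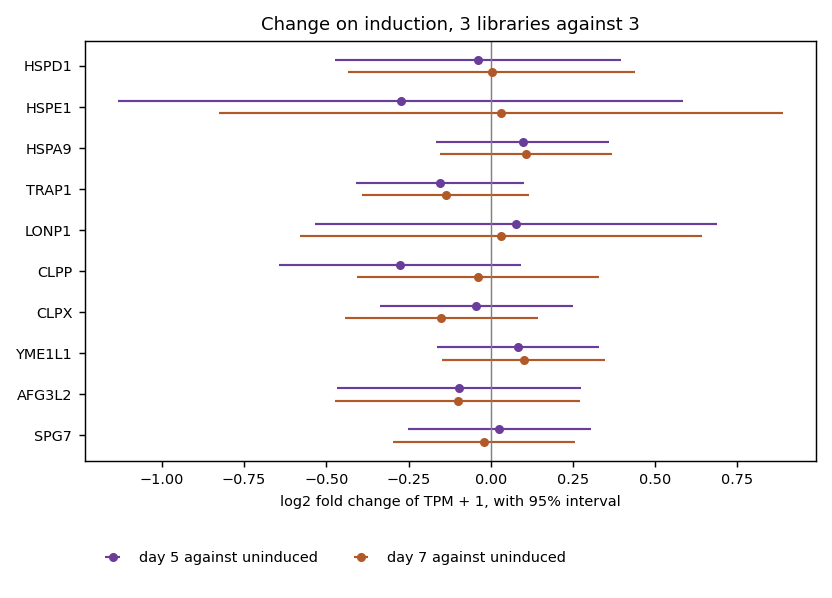
Log2 fold change of TPM + 1 at day 5 and day 7 against uninduced cells for each gene (horizontal axis), with limma's 95% interval as a line, from 3 libraries a group. Every interval includes 0, from the narrow ones of YME1L1 and TRAP1 to that of HSPE1, which runs from −1.13 to 0.58 at day 5.

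Across the 10 genes, 4 were higher and 6 lower at day 5 than uninduced, 5 and 5 at day 7, and 6 and 4 at day 7 against day 5, none of them passing the test. The median log2 fold change of the members was −0.041, −0.0081 and 0.013 in these comparisons, beside −0.018, −0.021 and −0.0044 for all tested genes. The day 5 and day 7 comparisons share the same uninduced libraries. Of the differences between day 7 and day 5, the largest were 0.30 for HSPE1 (−0.55 to 1.16), which was −0.10 without day 5 replicate 1, and 0.24 for CLPP (−0.13 to 0.61). In these bulk libraries, fewer cells expressing a gene and less RNA per cell cannot be told apart.

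All members other than CLPP varied more with replicate number than with day. The share of the sum of squares of log2(TPM + 1) that went with replicate number was 96.5% for LONP1, 82.2% for HSPD1, 80.4% for SPG7, 78.0% for AFG3L2 and 67.1% for HSPE1. CLPX, TRAP1, HSPA9 and YME1L1 had 64.2%, 56.7%, 49.8% and 49.3%. CLPP stood apart with 8.62% by number, 33.3% by day and 58.1% in neither. The median over all tested genes was 46.0% by number and 12.97% by day, and 9 of 10 members lay above the former.

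**Figure D4:**
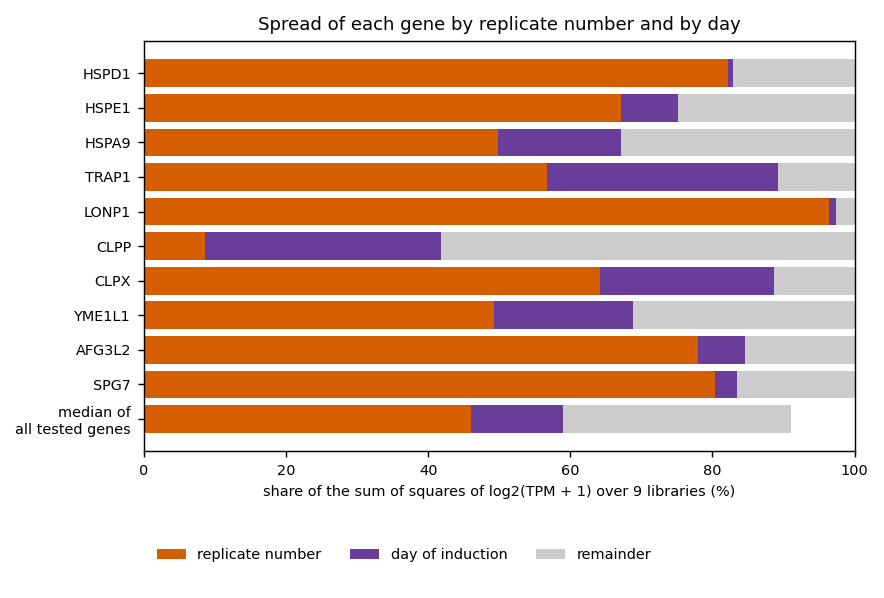
Share of each gene's spread over 9 libraries, in percent of the sum of squares of log2(TPM + 1), that goes with replicate number, with day of induction or with neither. Replicate number takes 96.5% for LONP1 and 8.62% for CLPP; the bottom bar gives the median of each share over 15045 genes, which need not add up to 100.

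Fitted with group and number together, 2 of 10 members differed between replicate numbers by limma's F test, LONP1 (F = 54.5, adjusted p = 0.00679) and HSPD1 (F = 12.4, adjusted p = 0.0427). This compares with 12.6% of all genes (1903 genes), so the count is near the background and says nothing particular of these genes as a set. That the libraries numbered 2 stand apart in this series was known when the comparison was chosen. The LONP1 call held in all 15 alternatives, with adjusted p from 0.00174 to 0.0453. The HSPD1 call was lost in 10 of 15, with adjusted p up to 0.183, among them the fits without uninduced replicate 1, 2 or 3, day 5 replicate 2, or day 7 replicate 1, 2 or 3. HSPE1 and AFG3L2 missed the threshold with limma adjusted p of 0.0621 and 0.0620, and both passed without day 5 replicate 1 (limma adjusted p = 0.0136 and 0.0482).

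LONP1 averaged 249.8 ± 19.5 TPM in number 1, 145 ± 2.38 in number 2 and 191 ± 8.55 in number 3 (SD, n = 3), and the 3 sets did not overlap. Each SD is over the libraries of 1 number, not over vials. HSPE1 averaged 431 ± 149, 768 ± 44.4 and 449.5 ± 32.2 TPM, and HSPD1 684 ± 76.8, 925 ± 18.9 and 698 ± 50.2. Libraries numbered 2 thus had the least LONP1 and the most of both barrel transcripts. AFG3L2 followed HSPD1, with 65.1 ± 6.71, 83.9 ± 2.86 and 67.6 ± 4.14 TPM.

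In number 2 against number 1, 4 of 10 members passed, against 17.6% of all genes. LONP1 was lower by a log2 difference of −0.78 (SE 0.075, limma adjusted p = 0.00237), and HSPE1 (0.90, adjusted p = 0.0357), HSPD1 (0.44, adjusted p = 0.0252) and AFG3L2 (0.37, adjusted p = 0.0353) were higher. Over 15 alternatives the LONP1 call was kept, while AFG3L2 lost its call in 10 and HSPD1 and HSPE1 in 5 each. Without uninduced replicate 2, day 5 replicate 2 or day 7 replicate 2, 1 of 10 members passed, and without uninduced replicate 3 or day 5 replicate 1, 2 of 10. In number 2 against number 3, 1 of 10 passed, against 7.82%, again LONP1 (−0.40, adjusted p = 0.0319). That call was lost without uninduced replicate 2 or 3, day 5 replicate 2 or 3, or day 7 replicate 2 or 3, and with no filter on low values, with adjusted p up to 0.142. In number 1 against number 3, 0 of 10 passed, against 0.12%; LONP1 differed by 0.38 (adjusted p = 0.117).

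By ranges alone, 6 of 10 members in the libraries numbered 2 did not overlap the other 6 libraries, against 24.6% of all genes. HSPD1, HSPE1, TRAP1, AFG3L2 and SPG7 lay above and LONP1 below. For number 1 this was 1 of 10 (LONP1, above) against 10.6%, and for number 3 it was 0 of 10 against 4.69%.

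Other genes of mitochondrial protein quality control were counted by list. None of the lists below had a member past the test in a day comparison, the smallest limma adjusted p of each being 1.00. Of 14 processing and other proteases, 6 were higher and 8 lower at day 5, and 4 and 10 at day 7. The most abundant were PMPCB, a subunit of the peptidase that removes import signals, at 90.9 ± 3.43 TPM uninduced and 94.2 ± 5.61 at day 7, and PITRM1, which degrades the removed signals, at 58.2 ± 4.52 and 57.2 ± 0.399. PARL, a rhomboid protease of the inner membrane, stood at 40.2 ± 2.04 and 43.9 ± 6.78.

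Among 12 co-chaperones and folding factors, 6 were higher and 6 lower at both day 5 and day 7; PPIF, the cyclophilin of the matrix, stood at 153 ± 41.4 TPM uninduced and 146 ± 14.0 at day 7. Of 8 scaffolds and adaptors of the membrane proteases 7 were tested, AFG1L lying under the filter, and 1 was higher and 6 lower at day 5, against 3 and 4 at day 7. The prohibitins, which form rings around the AFG3L2 protease, stood at 741 ± 76.0 TPM (PHB2) and 306 ± 75.5 (PHB) uninduced, and at 760.3 ± 99.3 and 272 ± 60.3 at day 7. Of 11 presequence import genes, which include PAM16 and TIMM44 from the co-chaperone list, 3 were higher and 8 lower at day 5, and 7 and 4 at day 7. TOMM20, an import receptor, stood at 259 ± 10.2 TPM uninduced and 250.3 ± 3.01 at day 7.

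The list of mitochondrial stress signalling held 16 genes, mostly the ATF4 branch and its targets but also HSF1. Of these 16, 13 had a higher and 3 a lower mean log2 value at day 5, and 11 and 5 at day 7, with none past the test. Their median log2 fold change was 0.099 at day 5 and 0.12 at day 7, beside −0.018 and −0.021 for all tested genes. The share of all tested genes that was higher was not counted, and genes of the same branch are not separate observations. ATF4 stood at 496 ± 150.2 TPM uninduced, 583 ± 138.2 at day 5 and 568 ± 70.6 at day 7, differences within the spread of the replicates. That spread includes the differences between replicate numbers. Each day 5 library had more ATF4 than the uninduced library of its number. At day 7 this held in numbers 2 and 3, and number 1 went the other way. ATF5, a relative of ATF4 linked to the chaperone response, was the most abundant of the list at 1992 ± 171, 1999 ± 67.3 and 2209 ± 115.

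Between replicate numbers, 9 of the 16 stress genes passed the F test (ATF4, DDIT3, CEBPB, TRIB3, ASNS, CHAC1, PSAT1, SHMT2 and MTHFD2), beside 12.6% of all genes, a count that ran from 4 to 9 over the alternatives, and all 9 were lower in number 2 than in number 1. ATF4, the activator, averaged 672, 434 and 541 TPM in numbers 1, 2 and 3, and ASNS, its target for asparagine synthesis, 222, 99.4 and 157. The list was drawn up with earlier results on these libraries known, so the count is no independent support. LONP1 had the same order, number 1 above 3 above 2, while HSPD1, HSPE1 and AFG3L2 were highest in number 2.

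**Figure D5:**
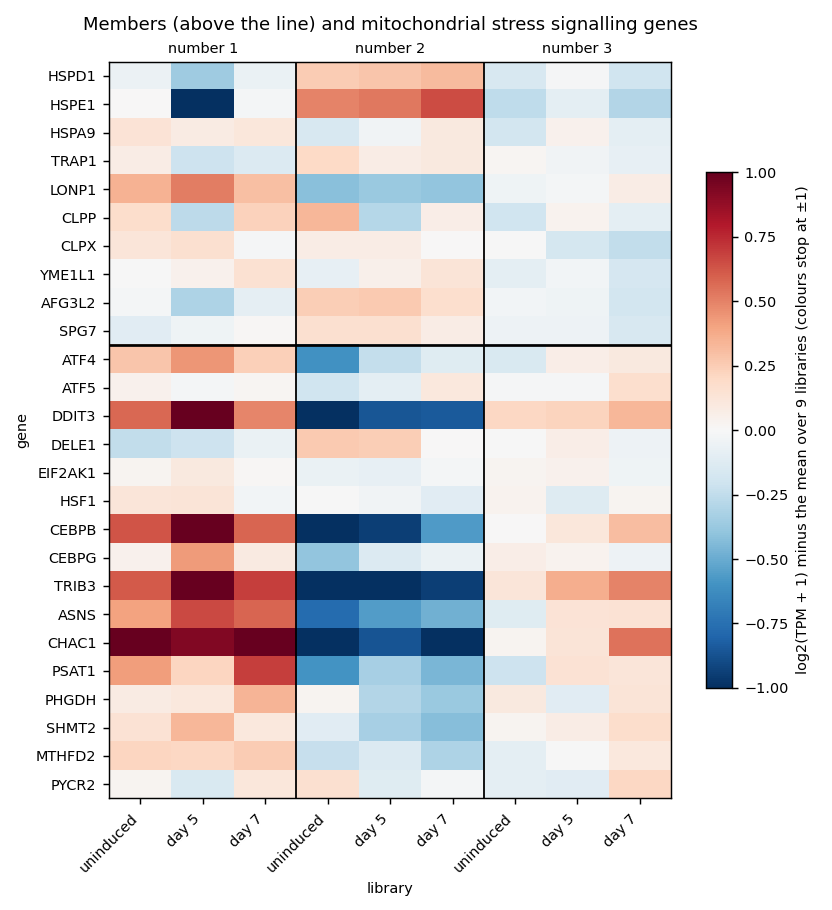
Log2(TPM + 1) minus each gene's mean over 9 libraries (colour, red above and blue below, stopping at ±1), libraries ordered by replicate number, the 10 members above the line and 16 stress signalling genes below it. In number 2, LONP1 is blue together with ATF4, TRIB3 and ASNS, while HSPD1, HSPE1 and AFG3L2 are red.

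In the other lists, the F test over numbers called 0 of 14 proteases, 3 of 12 co-chaperones (DNLZ, CLPB and BCS1L), 2 of 7 scaffolds and adaptors (STOML2 and CHCHD4) and 2 of 11 import genes (TOMM40 and TIMM21), beside 12.6% of all genes. Over the alternatives these counts ran from 0 to 2, 0 to 5, 0 to 3 and 0 to 4. TOMM40, the pore of the outer membrane, averaged 82.5, 161 and 86.9 TPM in numbers 1, 2 and 3 (limma adjusted p = 0.00844). CLPB, a disaggregase of the intermembrane space, went the other way at 6.31, 3.70 and 3.87 (limma adjusted p = 0.0360). PHB missed the threshold at 228, 360.0 and 242 TPM (limma adjusted p = 0.0543).

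The genes most like a member were sought by the root mean square difference between centred log2 profiles over the 9 libraries, among 8389 genes with a mean of at least 10 TPM. HSPD1 was most like DDX1 (0.038 log2 units), NOL8 and DDX23, beside a median of 0.25 for all genes. HSPE1 was most like NOP16 (0.088), FABP5 and FABP5P7, with a median of 0.49. LONP1 was most like EEF2 (0.055), PLD3 and GPC2, with a median of 0.38. HSPA9 was most like EIF2S2 (0.039) and EMC7, with a median of 0.22. CLPP had no close match, its nearest being LINC00106 at 0.13, GUK1 and PLOD1, against a median of 0.27. HSPD1 and AFG3L2 differed by 0.071, HSPD1 ranking 101 among all genes for AFG3L2. HSPD1 and its partner HSPE1 differed by 0.28, HSPD1 ranking 460 for HSPE1 and HSPE1 ranking 4845 for HSPD1, beyond the median distance from HSPD1. The distance also counts the size of the swing, and the SD over the libraries was 0.51 log2 units for HSPE1 and 0.23 for HSPD1. Both genes were highest in number 2. All these distances are descriptions over libraries that share replicate numbers.

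DNMT3A ChIP-seq, which set 1 wild-type Z138 library against 1 control library from the edited clone after 7 days of doxycycline at 2 ng/mL, gave the authors' list of 482 peaks. None of the 10 genes was overlapped by one. The share of all genes overlapped by a peak was not counted, so this absence says nothing particular of these genes. CLPX was nearest, 0.321 Mb from a peak at chr15:65506602-65507030 with a −log10 p of 2.21 from the authors' caller, and AFG3L2 was next at 8.56 Mb. The other 8 lay 24.0 to 67.1 Mb away. With 1 library on each side the list has no replicate check.

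Facts of the whole series bear on these values in a few places. Sequencing depth is unknown because each library is scaled to the same total, and libraries had 21590 to 22895 genes above 0. DNMT3A, the targeted gene, stood at 9.71 to 10.4 TPM uninduced, 10.0 to 18.9 at day 5 and 9.24 to 10.96 at day 7, so the level of its transcript does not check the edit. All 7 B cell and mantle cell lymphoma markers were present, with a summed level of 1833 to 2076 TPM uninduced, 1745 to 2007 at day 5 and 1733 to 2108 at day 7. By number the sum was 1733 to 1833, 2007 to 2108 and 1821 to 1975 in numbers 1, 2 and 3, and 5 of 7 markers passed the F test over numbers. Of 11 markers of other cell types, only COL1A1 reached 1 TPM, and it was present in every library at 7.04 to 16.1 TPM. The highest value among the rest in any library was 0.505, and HBB was listed at 0. The marker sum moves with replicate number beside LONP1, HSPD1, HSPE1 and AFG3L2, and its part in their differences was not tested.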

How the data were processed

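The authors deposited expression as TPM, 1 table with 9 RNA libraries, and a peak list whose −log10 p-value comes from their caller. Tools, per the submitters' processing notes and without stated roles, included HISAT2 2.1, StringTie 1.3.4, DESeq2 and Genrich 1.0, with build hg38; per the labels' protocols, the mRNA kit was stranded. Not given in the sources used here were the strand setting and the annotation release.

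Values were taken as log2(TPM + 1), which understates changes of low genes. Genes with at least 1 TPM in at least 3 libraries were tested with limma 3.58.1 (R 4.3.3), group as the only term, an intensity trend and Benjamini-Hochberg adjustment over all genes (adjusted p under 0.05). Replicate numbers were compared in a fit with group and number. In the fit by group, p-values measure the spread between the 3 libraries of a group, which came from separately frozen vials. In the fit with number, the libraries of 1 number stand as its replicates. Its p-values set differences between numbers against the spread left after group and number. No number is replicated by a further vial. No counts were recovered, so no counting interval is given.

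The members, lists and motifs were chosen with earlier results of these data known. The text names all 10 members, DNMT3A, up to 3 of the most abundant genes of a list, rows called by a test, member pseudogenes and up to 3 most alike genes; some genes the rule names are not reported here. Sequences and coordinates are from RefSeq GRCh38.p14. Alternatives were another pseudocount, other filters and scalings, a replicate block, 2 groups alone, libraries numbered 1 and 3 alone, number alone, and each library left out.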

Additional observations from a re-analysis of the deposited data

How the results depend on the processing

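No member was called in a day comparison under any alternative, and members' adjusted p-values ran from 0.845 up. With the replicate block, genes called were 1, 0 and 1 in day 5 against uninduced, day 7 against uninduced and day 7 against day 5, with 0 members called and a smallest member adjusted p of 0.944, 0.845 and 0.990; it changed no call. With the block, 771, 899 and 591 genes and 0 members had a limma unadjusted p under 0.05. It narrowed the intervals of some genes. At day 5 LONP1 ran from −0.098 to 0.25 (SE 0.075), HSPD1 from −0.27 to 0.19 (SE 0.099) and HSPE1 from −0.80 to 0.26 (SE 0.23). TRAP1 ran from −0.31 to 0.0018 (limma unadjusted p = 0.0520) at day 5 and from −0.29 to 0.018 (limma unadjusted p = 0.0757) at day 7. The CLPP interval did not narrow, at −0.65 to 0.099 at day 5. In 8 of 9 same-numbered pairs the correlation of deviations was over 0.1 (0.081 to 0.44, beside −0.41 to 0.19 for different numbers). A library's best match had its own number in 16 of 18 cases. By design the numbers stand for separately frozen vials induced on different days. Whether an uninduced library shared its day with the induced libraries of its number is not stated.

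Directions of small changes turned under some settings. Against uninduced, HSPA9, TRAP1 and YME1L1 kept their signs at both days, CLPP at day 5, and CLPX and AFG3L2 at day 7. The settings reuse the same libraries, so a kept sign is no independent support. Under quantile normalization HSPA9 turned to −0.0043 at day 7 against day 5. Under median scaling SPG7 turned to 0.011 at day 7 against uninduced and AFG3L2 to 0.012 at day 7 against day 5. With libraries numbered 1 and 3 only, day 7 against uninduced gave −0.024 for HSPD1, −0.032 for HSPE1, 0.079 for CLPP and 0.013 for SPG7, and day 7 against day 5 gave −0.054 for HSPA9, −0.015 for YME1L1 and 0.039 for AFG3L2. Leaving out 1 library at a time, day 5 against uninduced ran from −0.19 to 0.12 for HSPD1, −0.63 to 0.13 for HSPE1, −0.16 to 0.28 for LONP1, −0.11 to 0.055 for CLPX, −0.24 to 0.043 for AFG3L2 and −0.043 to 0.11 for SPG7. Day 7 against uninduced ran from −0.15 to 0.13 for HSPD1, −0.24 to 0.24 for HSPE1, −0.16 to 0.23 for LONP1, −0.19 to 0.078 for CLPP and −0.076 to 0.063 for SPG7. Day 7 against day 5 ran from −0.12 to 0.20 for HSPD1, −0.10 to 0.66 for HSPE1, −0.029 to 0.078 for HSPA9, −0.060 to 0.083 for TRAP1, −0.25 to 0.19 for LONP1, −0.038 to 0.12 for YME1L1, −0.14 to 0.14 for AFG3L2 and −0.096 to 0.023 for SPG7. The cause was not tested.

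Counts of all genes called moved more. In the order of the 3 day comparisons above they were 3, 1 and 4 with no filter, while 4 and 5 genes passed in the last 2 with only the 2 groups compared, and 0 and 1 in the first 2 with libraries numbered 1 and 3 only. Leaving out 1 library they ran from 1 to 3, 0 to 3 and 1 to 3. Between numbers, no filter gave 368 genes and 1 member by the F test, 1227 and 1 for 2 minus 1, 4 and 0 for 2 minus 3, and 0 genes for 1 minus 3. A minimum of 5 TPM gave 2 members for 2 minus 3 and 44 genes for 1 minus 3. The F test called 1 member under quantile normalization and under median scaling and 4 with number only in the model, which gave 1769 genes and 2 members for 2 minus 3. Leaving out 1 library, the F test called 247 to 1606 genes and 1 to 4 members, 2 minus 1 called 710 to 2244 and 1 to 4, 2 minus 3 called 1 to 1892 and 0 to 4, and 1 minus 3 called 0 to 10 genes. LONP1 remained called by the F test and in 2 minus 1 each time. Depth is unknown and limits what can be said of small changes.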

Other observations

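AFG3L1P, the human pseudogene of a further AAA protease subunit that is functional in mice, was listed at a mean of 37.4 TPM over the 9 libraries (30.7 to 49.4), beside 72.2 for AFG3L2. Its mean was 36.5 TPM uninduced, 36.6 at day 5 and 39.1 at day 7, and 32.2, 42.7 and 37.3 in replicate numbers 1, 2 and 3. The pseudogene HSPA9P1 was listed at 1.67 TPM, 0.577% of HSPA9, and AFG3L2P1 at 1.19 TPM, 1.65% of AFG3L2. TRAP1, LONP1, CLPP, CLPX and SPG7 had 0 such rows.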
